A study of Mus musculus with 8 samples.

Results

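The semaphorin genes and the genes of their plexin and neuropilin receptors were examined in mouse osteoblast progenitors. The members were chosen by symbol, namely every listed semaphorin of classes 3 to 7, every plexin of the A to D subfamilies and both neuropilins. This gave 31 genes of the 51822 symbols used, that is, 20 semaphorins, 9 plexins and 2 neuropilins. The cells were named MC3T3-E1, an osteoblastic line from mouse calvaria, in the sample labels and cultured calvarial cells in the methods of the study. All 8 libraries came from cells kept in medium with serum, ascorbic acid, dexamethasone and β-glycerophosphate. The control cells received DMSO, the vehicle, and the other cells received LAMZ, an aminoindazole derivative, at 1 μM. Cells were harvested on day 7 or day 14, and each of the 4 groups (day 7 control, day 7 LAMZ, day 14 control and day 14 LAMZ) held 2 libraries. The labels give these libraries replicate numbers but do not say that they came from separate cultures, so p-values measure the spread between these libraries, which may be technical.

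Semaphorins are signalling proteins that share an extracellular sema domain. Class 3 semaphorins are secreted, class 4, 5 and 6 semaphorins span the membrane, and Sema7a is held on the membrane by a lipid anchor. Plexins are their signalling receptors and act on small GTPases and the cytoskeleton. Most class 3 semaphorins bind through Nrp1 or Nrp2, which have a short cytoplasmic part and join with A plexins or Plxnd1. In bone, Sema3a made by osteoblast-lineage cells restrains osteoclast formation through Nrp1, and Sema4d made by osteoclasts acts on Plxnb1 of osteoblasts and restrains bone formation.

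The values are RPKM, which divide the reads of a gene by its length and by the depth of its library, so levels could be compared between genes. Between 3463512 and 5832151 mapped reads were recovered per library from the steps of the RPKM values, and with these the values of 24 members were whole reads, within 0.05 of a read, at their annotated exon length, while the length of the other 7 was set so that they were. Counting error alone did not account for the spread between replicates, whose chi-square per member gene was 2.43 to 3.99. The small RNA entry Rn7s1 alone took 18.1% to 33.7% of the summed RPKM of a library. This sum went with treatment. At day 7 it was 427558 and 437003 with LAMZ against 361198 and 338220 in control libraries. At day 14 it was 376912 and 375439 against 297868 and 286747. The Rn7s1 share overlapped between the groups at day 7, and at day 14 was 23.9% and 26.7% with LAMZ against 20.2% and 18.1%. Day 14 control replicate 1 had 22534 symbols above 0, whereas the other libraries had 17808 to 20702. Osteoblast markers were abundant in every library, with a summed RPKM of 9674 to 22079 over 12 genes, whereas 24 macrophage marker genes summed to 502.2 and 660.2 RPKM in the day 7 control libraries, 1267 and 1279 in the day 14 control libraries and 8.08 to 10.2 in the LAMZ libraries. In such bulk samples, fewer cells of a type and less RNA per cell cannot be told apart.

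Plexins and neuropilins included the most abundant members. The B plexin Plxnb2 had the highest mean over the 8 libraries, at 63.2 RPKM (55.3 to 73.9), followed by Plxna1 at 32.9 (27.9 to 37.6) and Nrp2 at 23.2 (17.2 to 34.4). Among the semaphorins, the secreted Sema3b and Sema3c led, with means of 14.2 RPKM (7.00 to 23.2) and 11.5 RPKM (4.27 to 19.6). Sema3d, Sema3a, Plxnd1, Sema5a, Sema4c, Nrp1, Sema7a, Plxnb1, Plxna3, Sema4d and Sema6c followed with means between 6.08 and 3.37 RPKM. The remaining 15 members had means of 2.20 RPKM (Sema4g) or less. The lowest was Sema5b, with 15 reads in the 8 libraries together.

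**Figure D1:**
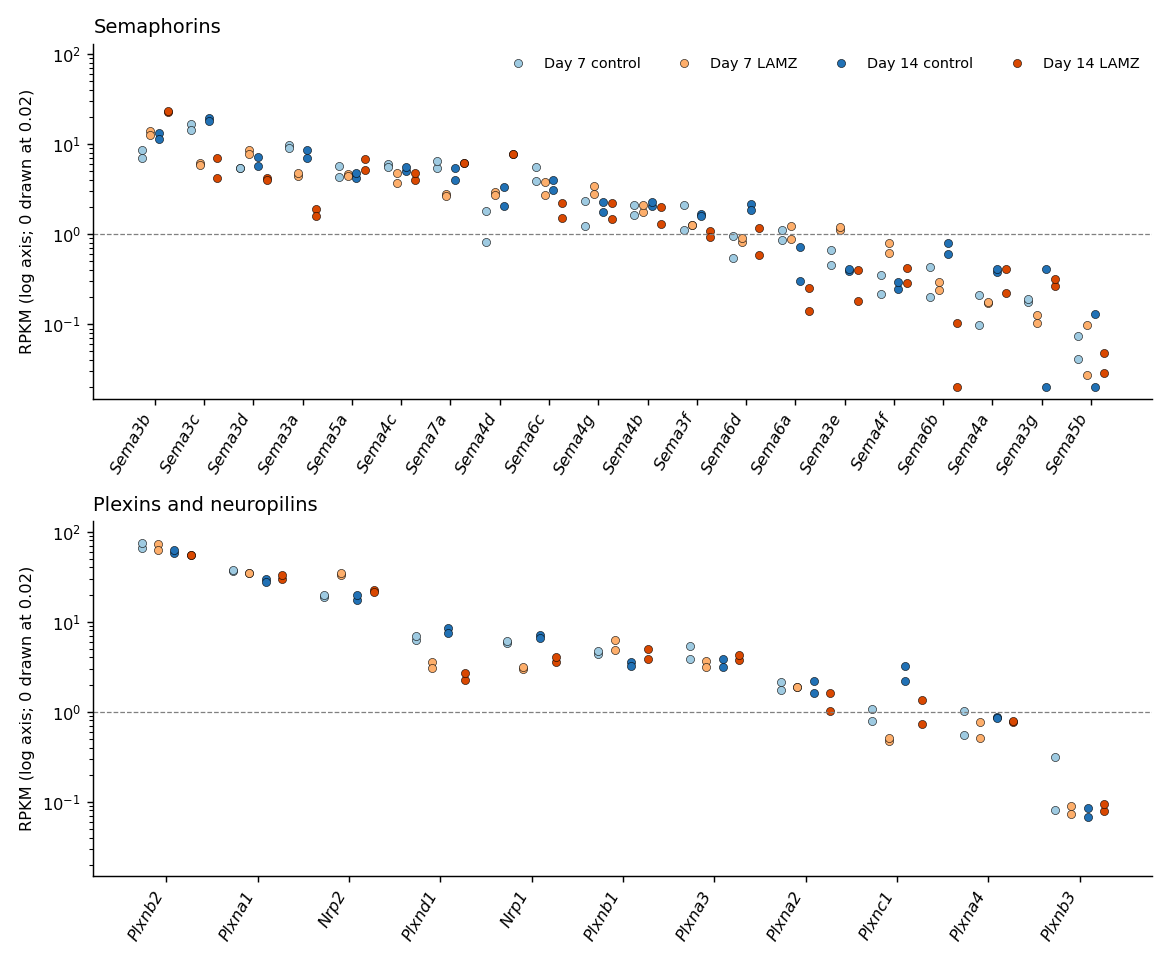
RPKM (log axis) of the 20 semaphorins (top) and the 11 plexins and neuropilins (bottom) in each of the 8 libraries, ordered by their mean, with 1 point per library coloured by group, values of 0 drawn at 0.02 and a dashed line at an RPKM of 1. Plxnb2, Plxna1 and Nrp2 lie above every semaphorin on average, and the 2 day 14 LAMZ points of Sema3a, at 1.93 and 1.58, lie below its other 6 points.

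Of the 31 members, 24 reached 1 RPKM in 2 or more libraries and were tested with all 12514 genes that did so by limma on log2(RPKM + 1), with Benjamini-Hochberg adjustment over these genes. A fold change on this scale understates the change of low genes. The 7 members that were not tested were Plxna4, Plxnb3, Sema3g, Sema4a, Sema4f, Sema5b and Sema6b. Sema3e passed the filter only through the 2 day 7 LAMZ libraries (1.11 and 1.22 RPKM), and Sema6a through 1 control and 1 LAMZ library of day 7 (1.12 and 1.22 RPKM). With 2 libraries against 2, an exact permutation test cannot give a two-sided p below 0.333, so the calls depend on limma pooling its estimate of the spread over genes.

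At day 7, 3 members were higher with LAMZ (Nrp2, Sema3b and Sema3d) and 5 were lower (Sema3c, Sema3a, Sema7a, Plxnd1 and Nrp1) by limma (adjusted p below 0.05). Over all genes tested, 4.35% were called higher and 8.49% lower at this day. At day 14, 2 members were higher (Sema4d and Sema3b) and 6 were lower (Sema3a, Sema3c, Plxnd1, Plxnc1, Nrp1 and Sema3d), against 6.96% higher and 16% lower over all genes tested. The median log2 fold change of the tested members was −0.07 at day 7 and −0.26 at day 14, and that of all genes tested was −0.08 and −0.15. Averaged over both days, 3 members were higher (Sema4d, Sema3b and Nrp2) and 6 lower (Sema3c, Sema3a, Plxnd1, Nrp1, Plxnc1 and Sema6c), against 9.12% and 20.3% of all genes tested. The average call of Nrp2 was lost with rescaling to the same sum (adjusted p = 0.110 from limma), and that of Plxnc1 under 8 of the 18 alternatives run for the average, among them the fits without day 14 LAMZ replicate 2, day 14 control replicate 1, either day 7 LAMZ library or day 7 control replicate 1 (adjusted p = 0.0543 to 0.0712 from limma). The LAMZ libraries lay wholly above the control libraries for 7 of the 24 tested members at day 7 and 6 at day 14, and wholly below for 10 and 14. The matching shares over all genes tested were not computed, so these counts are not a result about the members.

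The balance of higher and lower calls depends on the scaling between libraries. Over all genes, 33.9% of the calls at day 7 and 30.3% at day 14 were higher, against 8.69% and 8.16% with every library rescaled to the same sum of RPKM, which moved the median of all genes to −0.31 and −0.43. After each library was shifted to a common median, the shares were 53.5% and 56.3% and the medians 0.03 and 0.04. With this centring, 4 members were called higher and 5 lower at day 7, and 4 higher and 4 lower at day 14, where 6 of these 8 were also called without it. None of the 32 values called for a member changed direction under any alternative tried.

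**Figure D2:**
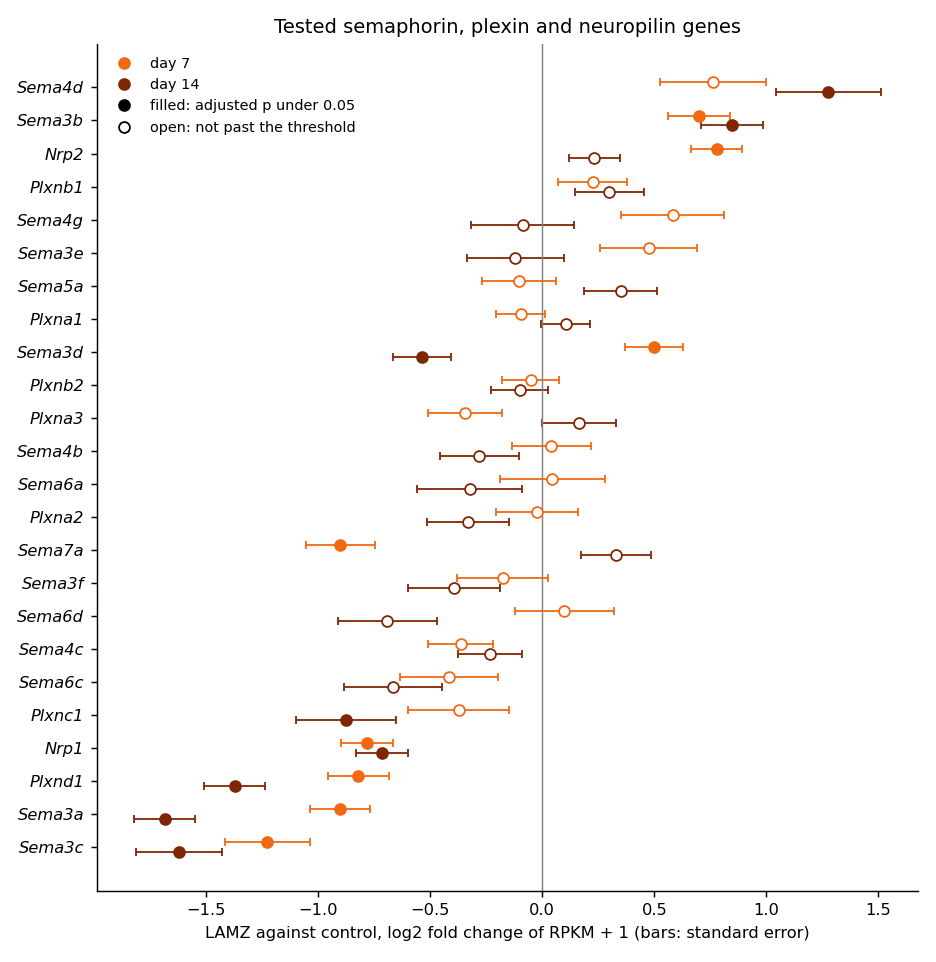
Log2 fold change of RPKM + 1 with LAMZ against control for the 24 tested members at day 7 (orange) and day 14 (brown), with bars for the standard error, ordered by the average of both days. Filled points passed an adjusted p under 0.05 from limma. Sema3c, Sema3a, Plxnd1 and Nrp1 lie below 0 at both days, Sema3b lies above 0 at both days, and Sema3d lies on opposite sides of 0.

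Among the secreted class 3 semaphorins, the largest falls were those of Sema3a and Sema3c. Sema3a (GRCm38 chromosome 5, 13125414 to 13602565, plus strand) had 9.87 and 9.06 RPKM in the day 7 control libraries, 4.41 and 4.78 with LAMZ at day 7, 7.12 and 8.63 in the day 14 control libraries and 1.93 and 1.58 with LAMZ at day 14. Every LAMZ library was below every control library, and the day 14 LAMZ libraries were the lowest of all. The log2 fold change was −0.90 at day 7 (standard error 0.14, adjusted p = 0.00502 from limma) and −1.69 at day 14 (standard error 0.14, adjusted p = 0.000157 from limma), and the mean of the control libraries was 2.06 times that of the LAMZ libraries at day 7 and 4.49 times at day 14. The call at day 7 was lost without day 7 LAMZ replicate 1, with an adjusted p of 0.0508 from limma.

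Sema3c (chromosome 5, 17574281 to 17730268, plus strand), a guidance cue known from heart and vessel development, had 16.7 and 14.4 RPKM in the day 7 control libraries, 6.21 and 5.89 with LAMZ at day 7, 19.6 and 18.3 in the day 14 control libraries and 6.96 and 4.27 with LAMZ at day 14. The LAMZ libraries did not overlap the control libraries at either day. Its log2 fold change was −1.23 at day 7 (standard error 0.19, adjusted p = 0.00582 from limma) and −1.62 at day 14 (standard error 0.19, adjusted p = 0.000928 from limma). Both calls held under all 19 alternatives.

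Sema3b (chromosome 9, 107597674 to 107609229, minus strand) went the opposite way. It had 7.00 and 8.70 RPKM in the day 7 control libraries, 13.9 and 12.7 with LAMZ at day 7, 13.4 and 11.4 in the day 14 control libraries and 22.9 and 23.2 with LAMZ at day 14. The day 7 LAMZ libraries lay in the range of the day 14 control libraries or just above it, and the day 14 LAMZ libraries were the highest. With LAMZ, the log2 fold change was 0.70 at day 7 (standard error 0.14, adjusted p = 0.0155 from limma) and 0.85 at day 14 (standard error 0.14, adjusted p = 0.00402 from limma). The call at day 14 held under all 19 alternatives, whereas that at day 7 was lost without day 7 LAMZ replicate 1 (adjusted p = 0.112 from limma), without day 7 LAMZ replicate 2 (0.0641), without day 7 control replicate 1 (0.0707), with rescaling to the same sum (0.0684; 0.0788 without Rn7s1) and in a fit of the 2 groups alone (0.0681).

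Sema3d (chromosome 5, 12383385 to 12588948, plus strand) rose at day 7 and fell at day 14. Its RPKM was 5.52 and 5.48 in the day 7 control libraries, 8.65 and 7.75 with LAMZ at day 7, 5.79 and 7.18 in the day 14 control libraries and 4.23 and 4.05 with LAMZ at day 14. The log2 fold change was 0.50 at day 7 (standard error 0.13, adjusted p = 0.0432 from limma) and −0.54 at day 14 (standard error 0.13, adjusted p = 0.0215 from limma). Both calls were close to the threshold. The first was lost under 12 of the 19 alternatives, among them the fits without either day 7 LAMZ library, without either day 7 control library and without either day 14 LAMZ library (adjusted p = 0.0713 to 0.222 from limma). The second was lost under 7, among them the fits without either day 14 LAMZ library and without day 14 control replicate 2 (adjusted p = 0.0784 to 0.115 from limma).

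Of the other class 3 members, Sema3e, which binds Plxnd1 without a neuropilin, had 0.665 and 0.457 RPKM in the day 7 control libraries and 1.11 and 1.22 with LAMZ at day 7, values that rest on 12 to 48 reads, and did not pass the test at either day (adjusted p = 0.201 at day 7 and 0.724 at day 14 from limma). Sema3f, which signals mainly through Nrp2, lay between 0.946 and 2.09 RPKM, with log2 fold changes of −0.18 and −0.39 that did not pass the test. Sema3g had at most 10 reads in a library.

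Among the membrane-bound semaphorins, Sema4d had the largest rise. Sema4d (chromosome 13, 51685529 to 51793747, minus strand) had 0.822 and 1.84 RPKM in the day 7 control libraries, 2.94 and 2.77 with LAMZ at day 7, 2.05 and 3.36 in the day 14 control libraries and 7.79 and 7.88 with LAMZ at day 14. The day 14 LAMZ libraries stood above all others, whereas the day 7 LAMZ libraries lay within the range of the day 14 control libraries. Its log2 fold change was 1.28 at day 14 (standard error 0.24, adjusted p = 0.00702 from limma), a mean 2.90 times that of the control libraries, and this call held under all 19 alternatives. At day 7, the log2 fold change was 0.76 (standard error 0.24), which did not pass the test (adjusted p = 0.0740 from limma), and the control values rest on 20 and 41 reads.

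Sema7a (chromosome 9, 57940112 to 57962865, plus strand), which binds integrin β1 and Plxnc1, fell at day 7. Its RPKM was 5.39 and 6.57 in the day 7 control libraries, 2.77 and 2.68 with LAMZ at day 7, 4.01 and 5.50 in the day 14 control libraries and 6.19 and 6.15 with LAMZ at day 14. The day 7 LAMZ libraries were the lowest of the 8, and at day 14 the LAMZ libraries lay above the control libraries. The log2 fold change was −0.90 at day 7 (standard error 0.15, adjusted p = 0.00901 from limma) and 0.33 at day 14, which did not pass the test (adjusted p = 0.166 from limma). The call at day 7 was lost without day 7 LAMZ replicate 1 or replicate 2, with adjusted p of 0.0626 and 0.0613 from limma.

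The class 6 semaphorins, which can act as both ligands and receptors, were low. Sema6d, the ligand of Plxna1 in the myeloid lineage, had 2.17 and 1.84 RPKM in the day 14 control libraries against 0.553 to 1.18 in the other 6, and its log2 fold change with LAMZ at day 14 was −0.69 (adjusted p = 0.0576 from limma), which did not pass the test. Sema6c had 5.63 and 3.89 RPKM in the day 7 control libraries, 2.77 and 3.85 with LAMZ at day 7, 3.07 and 4.03 in the day 14 control libraries and 1.5 and 2.24 with LAMZ at day 14. It did not pass the test at either day but fell on average over both days (log2 fold change −0.54, adjusted p = 0.0328 from limma). This call was lost under 7 of 18 alternatives, namely with median centring, with quantile normalization, with no filter, and without day 14 LAMZ replicate 1 (0.105), day 14 control replicate 2 (0.107), day 7 LAMZ replicate 1 (0.113) or day 7 control replicate 1 (0.0933). Sema6a lay between 0.140 and 1.22 RPKM and did not pass the test. Sema6b, not tested for its low level, had 17 and 11 reads in the day 14 control libraries and 0 and 2 with LAMZ at day 14, and passed the threshold only where no filter was used (adjusted p = 0.0380 from limma).

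The other tested class 4 and class 5 members, Sema4b, Sema4c, Sema4g and Sema5a, did not pass the test at either day. Sema4c, a ligand of Plxnb2, lay between 3.76 and 6.01 RPKM, with log2 fold changes of −0.36 and −0.23, but shares exon sequence with a transcript of the other strand (D430040D24Rik), and strand was not stated to be used in the counting. Sema4g had 1.25 and 2.37 RPKM in the day 7 control libraries and 2.84 and 3.43 with LAMZ at day 7 (adjusted p = 0.144 from limma). Sema4b lay between 1.31 and 2.31 RPKM, and Sema5a, which carries thrombospondin repeats, between 4.24 and 6.88. Sema4a and Sema4f, which were not tested, had at most 11 and 22 reads in a library.

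Among the plexins, Plxnd1 and Plxnc1 fell, whereas the tested A and B plexins did not pass the test at either day. Plxnd1 (chromosome 6, 115954811 to 115995005, minus strand), known from blood vessels as the receptor of Sema3e, had 6.21 and 7.00 RPKM in the day 7 control libraries, 3.56 and 3.05 with LAMZ at day 7, 8.47 and 7.45 in the day 14 control libraries and 2.23 and 2.69 with LAMZ at day 14. Every LAMZ library lay below every control library. Its log2 fold change was −0.82 at day 7 (standard error 0.14, adjusted p = 0.00777 from limma) and −1.37 at day 14 (standard error 0.14, adjusted p = 0.000406 from limma). The call at day 7 was lost without day 7 LAMZ replicate 2 (adjusted p = 0.0620 from limma), and that at day 14 held under all 19 alternatives.

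Plxnc1 (chromosome 10, 94790866 to 94944835, minus strand), the plexin receptor of Sema7a, had 1.08 and 0.795 RPKM in the day 7 control libraries, 0.477 and 0.506 with LAMZ at day 7, 3.26 and 2.20 in the day 14 control libraries and 1.33 and 0.736 with LAMZ at day 14. The day 14 control libraries were the highest, with 146 and 83 reads. With LAMZ, the log2 fold change was −0.37 at day 7, which did not pass the test (adjusted p = 0.325 from limma), and −0.87 at day 14 (standard error 0.22, adjusted p = 0.0261 from limma). The latter was lost under 6 of the 19 alternatives, namely without day 14 LAMZ replicate 2 (adjusted p = 0.154 from limma), without day 14 control replicate 1 (0.141), with median centring (0.0712), with quantile normalization (0.0792), without the filter (0.0780) and in a fit of the 2 groups alone (0.0560). Its reads may include those of Gm48718, an entry of unproven coding status that shares an exon on the same strand.

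Plxnb2 lay between 55.3 and 73.9 RPKM, and its log2 fold changes with LAMZ were −0.05 (standard error 0.13) at day 7 and −0.10 (standard error 0.13) at day 14. Plxna1 lay between 27.9 and 37.6 RPKM, with log2 fold changes of −0.10 (standard error 0.11) and 0.10 (standard error 0.11). Plxnb1, the receptor of Sema4d, had 4.40 and 4.76 RPKM in the day 7 control libraries, 6.18 and 4.90 with LAMZ at day 7, 3.53 and 3.18 in the day 14 control libraries and 3.84 and 4.93 with LAMZ at day 14. Its LAMZ libraries lay above the control libraries at both days, but neither log2 fold change (0.22 and 0.30) passed the test (adjusted p = 0.386 and 0.196 from limma). Plxna1 and Plxnb1 overlap annotated antisense exons (Gm26811 and Gm7628), whose reads cannot be told apart here. Plxna3 lay between 3.12 and 5.35 RPKM and Plxna2 between 1.02 and 2.17. Plxna4 reached 1.01 RPKM in 1 library, and Plxnb3 had at most 7 reads in a library.

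The neuropilins changed in opposite directions at day 7. Nrp1 (chromosome 8, 128358604 to 128503363, plus strand), the co-receptor of Sema3a and of VEGF-A, had 5.85 and 6.08 RPKM in the day 7 control libraries, 2.97 and 3.14 with LAMZ at day 7, 7.06 and 6.60 in the day 14 control libraries and 3.54 and 4.02 with LAMZ at day 14. Each LAMZ library was below each control library. The log2 fold change was −0.78 at day 7 (standard error 0.12, adjusted p = 0.00480 from limma) and −0.71 at day 14 (standard error 0.12, adjusted p = 0.00397 from limma), and both calls held under all 19 alternatives. Nrp2 (chromosome 1, 62703285 to 62818695, plus strand) had 18.7 and 19.5 RPKM in the day 7 control libraries, 32.6 and 34.4 with LAMZ at day 7, 17.2 and 19.7 in the day 14 control libraries and 22.2 and 21.5 with LAMZ at day 14. It rose at day 7 (log2 fold change 0.78, standard error 0.11, adjusted p = 0.00459 from limma), a call that held under all 19 alternatives, and did not pass the test at day 14 (log2 fold change 0.23, adjusted p = 0.183 from limma). The summed RPKM of both neuropilins was 24.5 and 25.6 in the day 7 control libraries and 35.5 and 37.5 with LAMZ at day 7, against 24.3 and 26.3 in the day 14 control libraries and 25.7 and 25.5 with LAMZ at day 14.

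**Figure D3:**
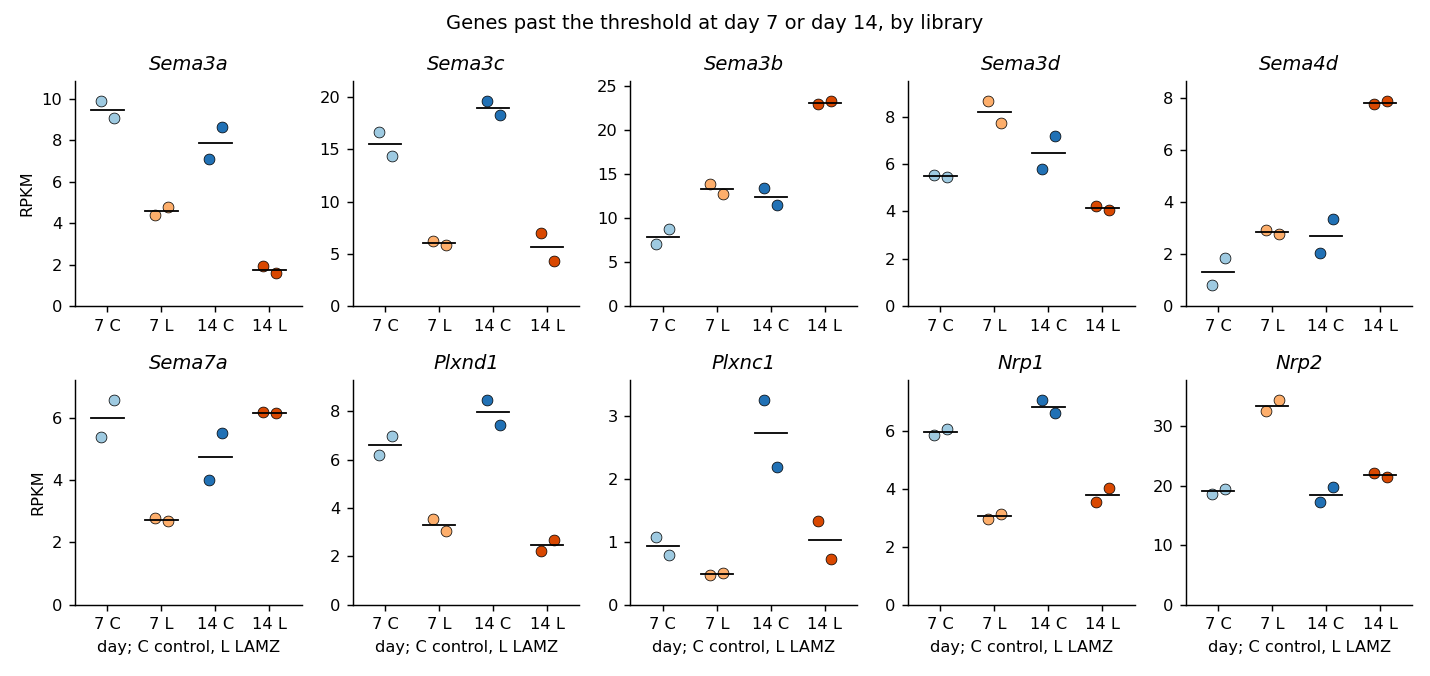
RPKM of the 10 members past the threshold at day 7 or day 14, each panel with its own axis from 0, with 1 point per library and a line at the mean of the 2 libraries of each group (7 C and 14 C, control; 7 L and 14 L, LAMZ). Sema3a, Sema3c, Plxnd1 and Nrp1 are lower with LAMZ at both days, Sema4d is highest in the day 14 LAMZ libraries (7.79 and 7.88), and Sema7a is lowest in the day 7 LAMZ libraries (2.77 and 2.68).

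The promoter is printed of each member that was called at day 14 and on average and has a window outside annotated exons, so that base composition can be compared. Sequences are from RefSeq on GRCm38.p6 and comprise the 250 bases before a start listed there, written along the strand of the gene. For Sema3a, Nrp1 and Sema4d, this start lies inside the gene span given above, downstream of its outermost start. They lie at chr5:13396534-13396783 (plus strand, Sema3a), chr8:128358823-128359072 (plus strand, Nrp1), chr6:115995006-115995255 (minus strand, Plxnd1), chr10:94944846-94945095 (minus strand, Plxnc1) and chr13:51739447-51739696 (minus strand, Sema4d, 1 of its 3 listed starts). Capitals mark a RUNX motif (TGTGGT).
Sema3a: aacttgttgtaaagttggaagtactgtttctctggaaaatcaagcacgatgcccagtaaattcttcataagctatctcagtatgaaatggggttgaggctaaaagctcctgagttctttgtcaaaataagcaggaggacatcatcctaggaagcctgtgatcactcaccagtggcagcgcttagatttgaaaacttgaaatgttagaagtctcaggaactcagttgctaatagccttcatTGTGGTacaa
Nrp1: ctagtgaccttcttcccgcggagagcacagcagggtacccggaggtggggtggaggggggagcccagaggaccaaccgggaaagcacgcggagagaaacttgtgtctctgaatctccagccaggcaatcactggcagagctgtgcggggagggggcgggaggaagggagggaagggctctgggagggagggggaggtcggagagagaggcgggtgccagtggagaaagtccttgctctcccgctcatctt
Plxnd1: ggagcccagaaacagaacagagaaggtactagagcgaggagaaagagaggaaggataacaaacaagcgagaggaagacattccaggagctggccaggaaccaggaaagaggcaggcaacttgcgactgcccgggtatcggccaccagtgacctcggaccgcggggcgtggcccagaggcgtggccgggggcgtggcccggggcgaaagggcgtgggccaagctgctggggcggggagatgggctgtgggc
Plxnc1: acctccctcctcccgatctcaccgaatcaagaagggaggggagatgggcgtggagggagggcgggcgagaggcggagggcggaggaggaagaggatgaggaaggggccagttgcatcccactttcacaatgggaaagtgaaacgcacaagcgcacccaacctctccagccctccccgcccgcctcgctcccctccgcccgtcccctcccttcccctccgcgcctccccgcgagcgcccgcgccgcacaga
Sema4d: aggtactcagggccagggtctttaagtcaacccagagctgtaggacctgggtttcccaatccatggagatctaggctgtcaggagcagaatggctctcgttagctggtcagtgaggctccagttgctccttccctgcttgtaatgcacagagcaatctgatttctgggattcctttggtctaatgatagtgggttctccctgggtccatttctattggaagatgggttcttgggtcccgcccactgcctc

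The Sema3a window held 40.8% G and C and 2 CpG, and the Sema4d window held 52.4% and 2 CpG. The windows of Nrp1, Plxnd1 and Plxnc1 held 64.4%, 64.8% and 68.8% G and C, with 11, 16 and 22 CpG. The median over all 32851 promoters of the table was 52.4% and 6 CpG, and over the 37 promoters of 26 members 64.0% and 13 CpG. On both strands of the 250 bases, TGTGGT, the core bound by Runx2 and its relatives, occurred in 5 of the 37 member promoters (Plxna3, Plxnb3, Sema3a, Sema4d and Sema6d) and in 14.0% of all promoters. In Sema3a it lay 10 to 5 bases before this inner RefSeq start, not before the outermost start of the gene, and in Sema4d it lay at another of the 3 starts. The AP-1 motif TGANTCA, which reads alike on both strands, occurred in 3 (Sema4c, Sema4d and Sema6b) against 6.75% of all promoters, and the MEF2 motif in 1 (Sema6d) against 2.92%. GAGGAAGT, an ETS motif bound by PU.1, occurred in none against 2.44%, and TATAAA in none against 12.4%. These matches describe letters only.

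The members known for coupling between bone cells were Sema3a, Sema4d, Sema7a, Sema6d, Plxnb1, Plxna1 and Nrp1. Within the Sema3a axis, the ligand and its co-receptor Nrp1 both fell at both days, while the A plexin Plxna1 stayed between 27.9 and 37.6 RPKM. Within the Sema4d axis, the ligand rose at day 14, when its mean was 7.83 ± 0.0611 RPKM (SD, n = 2) with LAMZ and 2.71 ± 0.927 in control cells, and the receptor Plxnb1 had 4.39 ± 0.770 and 3.36 ± 0.248 RPKM (SD, n = 2) without passing the test. At day 14, the mean of Sema4d with LAMZ exceeded that of Sema3a (1.75 ± 0.246 RPKM), whereas in control cells Sema3a was the higher (7.87 ± 1.07 RPKM). For Sema7a, the ligand fell at day 7 and its plexin Plxnc1 at day 14. Sema6d had at most 1.18 RPKM outside the day 14 control group. Of 4 tested osteoclast markers, none passed the test at day 7 and 1 was higher at day 14, and the summed RPKM of all 9 was 116.9 and 93.1 in the day 7 control libraries, 95.0 and 100.6 with LAMZ at day 7, 105.3 and 112.8 in the day 14 control libraries and 130.3 and 118.6 with LAMZ at day 14. That sum is mostly Ctsk, which had 84.97 to 119.4 RPKM.

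Macrophage markers were much lower with LAMZ at both days. Of 22 tested macrophage markers, limma called 18 lower at day 7 and 21 lower at day 14, against 8.49% and 16% of all genes tested. None was higher, also at an unadjusted p under 0.05. Markers at 0 in all LAMZ libraries passed the filter only through the control libraries, where they are high. For these, lower was the only possible direction, so the counts are not independent of the filter. The C1q genes C1qa and C1qb were at 0 in all 4 LAMZ libraries and at 30.7 to 97.4 RPKM in the control libraries, and the lysozyme gene Lyz2 fell from between 312.2 and 789.3 RPKM to between 5.29 and 8.20. Of the 24 listed markers, 12 to 14 were at 0 in each LAMZ library and none in a control library. The LAMZ libraries, where these markers summed to 8.08 to 10.2 RPKM, held Plxnc1 at 0.477 to 1.33 RPKM and Plxnd1 at 2.23 to 3.56. Nrp1 had 2.97 to 4.02 RPKM there, Sema3a 1.58 to 4.78 and Sema3c 4.27 to 6.96. From day 7 to day 14 in control cells, 16 macrophage markers rose, while the mean of Plxnc1 went from 0.938 ± 0.201 to 2.73 ± 0.748 RPKM, that of Plxnd1 from 6.61 ± 0.557 to 7.96 ± 0.718, that of Nrp1 from 5.97 ± 0.158 to 6.83 ± 0.325, that of Sema3c from 15.5 ± 1.67 to 18.9 ± 0.926 and that of Sema3a from 9.46 ± 0.574 to 7.87 ± 1.07 (SD, n = 2). None of these 5 passed the test over time in control cells, Plxnc1 coming nearest (log2 fold change 0.93, adjusted p = 0.0573 from limma). Between the LAMZ groups, in which the marker sum stayed between 8.08 and 10.2 RPKM, Sema3a fell from day 7 to day 14. That sum is mostly Lyz2, with 12 to 14 of the 24 markers at 0, so it lay near the floor and could show little change. The part of the macrophage markers in the changes of Plxnc1, Plxnd1, Nrp1, Sema3a and Sema3c was not tested.

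**Figure D4:**
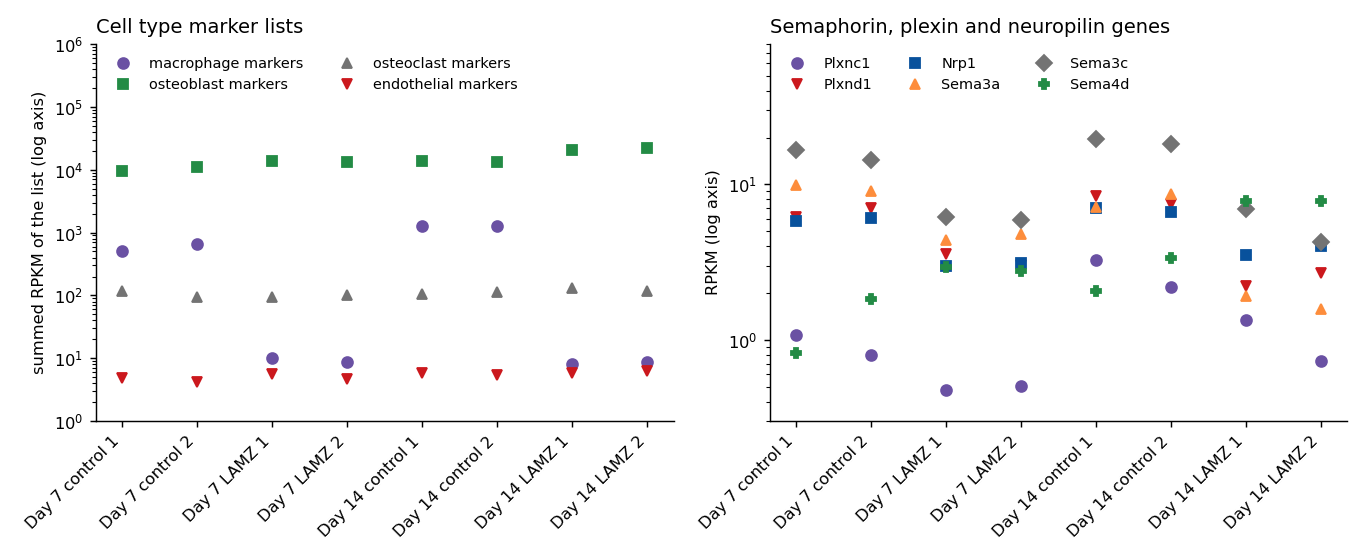
Summed RPKM of 4 marker lists (left, log axis) and RPKM of 6 members (right, log axis) in each of the 8 libraries. The macrophage sum is 502.2 to 1279 in control libraries and 8.08 to 10.2 in LAMZ libraries, the osteoblast sum lies between 9674 and 22079, and Sema4d and Sema3a exchange order between the day 14 control and day 14 LAMZ libraries.

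Other cell types were checked in the same way. Over all genes tested, 4.35% were called higher and 8.49% lower at day 7, and 6.96% and 16% at day 14. Of 12 osteoblast markers, 8 were higher at each day and none was lower, and the largest rises were those of Dmp1 (log2 fold change 3.48 at day 7 and 2.92 at day 14), Spp1 (3.23 and 2.99) and Alpl (1.97 and 2.16). Their summed RPKM at day 14 was 13607 and 13293 in control libraries and 20415 and 22079 with LAMZ. Sema4d and Sema3b were called higher at the same day, and the part of these markers in their rises was not tested. Of 6 cartilage markers, 4 were higher at day 7 and 5 at day 14, when 1 was lower, and Acan, Matn1 and Col9a1 led with log2 fold changes of 3.01, 2.63 and 2.16 at day 7. Endothelial markers, in which Plxnd1 is known to be high, summed to 4.25 to 6.26 RPKM in all 8 libraries. Cldn5 was at 0 in every library. Of the 3 tested endothelial markers, only Tek was lower at both days (log2 fold change −1.14 and −0.91), and 1 other was higher at day 14. Lymphocyte markers, of a lineage known to express Sema4d, were not tested for their low level and summed to at most 1.31 RPKM, with Cd79a at 1.15 RPKM in day 14 control replicate 1. Neuron and glia markers summed to 9.69 to 13.99 RPKM, mostly S100b and Tubb3, of which Tubb3 was higher at day 14 (log2 fold change 1.95, adjusted p = 0.000174 from limma).

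The partners of these receptors outside the family gave mixed results. Their counts, and those of the VEGF family and protease lists, stand beside 4.35% higher and 8.49% lower over all genes tested at day 7. At day 14 these shares were 6.96% and 16%, and no list was tested against them. Of 11 tested co-receptors and binding partners, 1 was higher and 5 lower at day 7, and 2 were higher and 6 lower at day 14. Tyrobp and Trem2, the adaptor and receptor that pair with Plxna1 in myeloid cells and are also in the macrophage list, fell most, from 17.5 to 49.1 RPKM in control libraries to 0 in all 4 LAMZ libraries for Tyrobp and from 2.16 to 8.17 RPKM to at most 0.0948 for Trem2. Both passed the filter only through the control libraries. Cspg4, a proteoglycan of progenitor cells and pericytes, rose (log2 fold change 1.33 at day 7 and 1.77 at day 14, adjusted p = 0.00484 and 0.000763 from limma), Gpc3 fell at both days (−0.70 and −1.07), and Itgb1, the integrin partner of Sema7a, had 103.7 to 145.1 RPKM and did not pass the test at either day. Of 34 tested intracellular effectors, 4 were higher and 4 lower at each day. Averaged over both days, 3 were higher and 8 lower, against 9.12% and 20.3% of all genes tested. On this average, 7 of the 34 had a log2 fold change above 0, and the median was −0.17, against −0.11 over all genes tested. The flavoprotein monooxygenase Mical2 (0.83 and 1.07), the kinase Fyn (0.96 and 0.90) and the exchange factor Farp2 (0.92 and 0.64) rose at both days (adjusted p of at most 0.0158 from limma). The abundant Cfl1 and Rhoa did not pass the test at either day, and Dpysl2, a mediator of Sema3a signalling, fell at day 14 (log2 fold change −0.75, adjusted p = 0.00289 from limma).

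Of 4 tested genes among the neuropilin ligands and receptors of the VEGF family, 1 was lower at day 7, and 1 was higher and 2 lower at day 14. Vegfd fell from 32.97 to 37.6 RPKM in control libraries to 6.33 and 8.29 with LAMZ at day 7 and to 2.14 and 2.21 at day 14 (adjusted p = 0.000145 and 6.35e-06 from limma). Vegfa rose at day 14 (log2 fold change 0.81, adjusted p = 0.0272 from limma). Of the 8 proteases that process or shed semaphorins, 2 were higher and 1 lower at day 7, and 1 was higher and 2 lower at day 14. Adamts1 fell at both days (log2 fold change −1.54 and −0.62), the furin relative Pcsk6 rose at day 14 (1.32, adjusted p = 0.0139 from limma), and the membrane protease Mmp14 had 106.7 to 162.8 RPKM without passing the test.

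The comparison of day 14 with day 7 asked how these genes differed over time. Of the 24 tested members, 1 was higher at day 14 than at day 7 in control cells and none was lower by limma. At the same adjusted threshold, 2.46% of all genes tested were higher and 2.4% lower. At an unadjusted p under 0.05 from limma, 4 members were higher and 2 lower, and the share of all genes at that threshold was not computed. The call, Sema3b (log2 fold change 0.60, adjusted p = 0.0493 from limma), was lost under 15 of the 19 alternatives, with an adjusted p of up to 0.224 without day 14 control replicate 1. The means of Plxnc1, Sema6d and Sema4d in control cells were 2.91, 2.66 and 2.04 times as high at day 14 as at day 7, with no overlap between the libraries, but did not pass the test (adjusted p = 0.0573, 0.0875 and 0.143 from limma). In LAMZ-treated cells, 3 members were higher at day 14 (Sema4d, Sema7a and Sema3b, with log2 fold changes of 1.20, 0.94 and 0.75) and 3 lower (Sema3a, Sema3d and Nrp2, with −1.02, −0.84 and −0.59), against 5.1% and 9.26% of all genes tested. Only the fall of Sema3a (adjusted p = 0.00346 from limma) held under all 19 alternatives. The number of calls was 3 without day 14 LAMZ replicate 1, 1 without day 14 LAMZ replicate 2, 1 without day 7 LAMZ replicate 1 and 2 without day 7 LAMZ replicate 2. The comparisons share libraries with those of LAMZ against control.

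Whether the difference between LAMZ and control changed from day 7 to day 14 was tested in the same fit. None of the 24 tested members passed the adjusted threshold by limma, against 0.312% of all genes higher and 0.312% lower. At an unadjusted p under 0.05 from limma there were 6 members, and the share of all genes at that threshold was not computed. The fall of Sema3a was larger at day 14 by 0.78 on the log2 scale (adjusted p = 0.116 from limma), and that of Plxnd1 by 0.55 (adjusted p = 0.215 from limma), so that neither fall was shown to differ between the days. Sema3d and Sema7a came closest to the threshold, with adjusted p of 0.0579 and 0.0582 from limma.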

How the data were processed

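RNA sequencing data of 8 libraries were analysed, and the labels place them in 4 groups of 2. The value header of day 7 LAMZ replicate 1, unlike those of the other libraries, does not repeat the sample title. Its group rests on the sample under which the values were deposited. Sequencing was done on an Ion Proton and read assignment in CLC Genomics Workbench, from which the authors deposited RPKM values per gene symbol. The build is mm10 per the submitters' processing notes, and the version and settings of the program are not given in the sources used here. No scaling between libraries is stated. In each file, 4 entries with a duplicated symbol were dropped.

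Gene positions and lengths were taken from GENCODE M21 on GRCm38. The depth of each library was taken as the mapped read number that turns low RPKM of genes with 1 exon into whole reads (tolerance 0.05), which 96.7% to 98.2% of the values checked met. For 7 members, the length was set from their own values. Read numbers cover counting error only, since PCR reads are not independent molecules.

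Genes that reached 1 RPKM in 2 or more libraries were fitted in limma 3.58.1 (R 4.3.3) on log2(RPKM + 1), with all 4 groups in 1 fit, 4 residual degrees of freedom and a mean-variance trend, with Benjamini-Hochberg adjustment across all genes tested. The fit was tested on simulated data. The alternatives were pseudocounts of 0.1 and 5, no filter or 1 RPKM in 4 or more libraries, rescaling to the same sum, median centring, quantile normalization, the replicate number as a block, the 2 groups alone, no trend and leaving out each library. Promoter motifs were counted in Python 3.11.15 on RefSeq sequences, which cover 26 of the 31 members.

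All members are named. Of each other list, the 3 genes with the highest mean RPKM and the 3 with the largest change among those past the threshold at both days could be named, and those at 0 in all libraries. The members and lists were chosen with earlier results of these data known, so none of them is independent support. Values were not compared with the study's own fold changes.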

Additional observations from a re-analysis of the deposited data

Results flagged for a closer look

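For 2 members, the libraries of LAMZ and control were wholly separated at both days but in opposite directions. The matching share over all genes tested was not computed, so this count is not a result about the members. The 2 were picked by this separation. The effect at day 14 minus that at day 7, tested in the same limma fit, rests on the same values. For Sema3d, this difference was −1.03 on the log2 scale (standard error 0.18), with LAMZ libraries at 8.65 and 7.75 RPKM against 5.52 and 5.48 at day 7, and at 4.23 and 4.05 against 5.79 and 7.18 at day 14. For Sema7a, it was 1.23 (standard error 0.22), with LAMZ libraries at 2.77 and 2.68 RPKM against 5.39 and 6.57 at day 7, and at 6.19 and 6.15 against 4.01 and 5.50 at day 14. Neither passed the threshold over all genes tested (adjusted p = 0.0579 and 0.0582 from limma), and the Sema7a values rest on 39 to 119 reads per library. No group had enough libraries for a check of single outlying samples.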

How the results depend on the processing

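Each count of called members was recomputed under the alternatives. Rescaling every library to the same sum raised the number of members called at day 14 from 8 to 15 and the number on average from 9 to 17, of which 2 were higher in each and 13 and 15 lower. At day 7, the number was 8 and lay between 4 and 8 when 1 library was left out, with 4 without day 7 LAMZ replicate 1 or 2. For day 14 against day 7 in LAMZ-treated cells, the number was 6 and lay between 1 and 6 when 1 library was left out. In control cells, it was 1, and became 2 with the stricter filter or a pseudocount of 5, 3 with the same sum, and 0 with median centring, quantile normalization, a pseudocount of 0.1, no filter, the 2 groups alone or the replicate block, and 0 to 1 when 1 library was left out. For the difference between the days, it was 0, and became 2 with median centring and 1 with quantile normalization or a pseudocount of 5. Other counts stayed within 1.5 times.

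Same-numbered libraries of different groups deviated from their group means with correlations of −0.034 to 0.078, so the numbers were not taken to pair the samples. With the replicate block, 7 members were called at day 7, 8 at day 14, 9 on average and 6 over time in LAMZ-treated cells. Rescaling to the same sum without Rn7s1, an alternative chosen after seeing the data, gave 6 at day 7 and 10 at day 14. None of the 32 called values of members reversed. Uncalled values changed sign 96 times, summed over all alternatives, so the same value can count more than once. With 2 libraries in a group and under 50 reads for the lowest members, small changes of those genes could not be resolved.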
